A study of Mus musculus with 2 samples.

Results

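The genes described here encode 10 transcription factors (TFs) of the urothelium that lie outside the forkhead family: the p53 relative Trp63, the nuclear receptor Pparg, the grainyhead-like factors Grhl1, Grhl2 and Grhl3, the zinc finger factors Gata3 and Klf5, the ETS factors Elf3 and Ehf, and the zinc finger factor Ovol1. They were chosen by name, with earlier results of these data known. Every biological probe that the array files assign to one of them was kept. This gave 15 of the 39429 biological probes and 10 of the 29864 gene names. All 15 probes were well above background in at least 1 condition on both arrays and were therefore tested, together with 28824 probes in all. Trp63 had 4 probes, Ehf and Grhl2 had more than 1, and each of the other members had 1.

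Ureters of wildtype NMRI embryos were dissected at E12.5 and kept as explants for 18 h without serum. The BIO group received 10 µM BIO, an inhibitor of the kinase GSK3 that activates canonical WNT signaling, and the control group received DMSO, in which BIO is dissolved, at a ratio of 2 to 1000. There were 2 pools of ureters per group, and the sex of the embryos was not determined. Each of the 2 arrays compared the RNA of 1 BIO pool with that of 1 control pool, with the dyes exchanged between the arrays, so n = 2 throughout.

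The urothelium is the stratified lining of the ureter and bladder, with basal, intermediate and superficial cells. p63 marks its basal and intermediate cells. PPARG, GATA3, KLF5, ELF3 and GRHL3 are known for promoting the differentiation of its upper layers, and the uroplakins made by superficial cells form its barrier to urine. At the stage of explantation the ureteric epithelium is still a simple tube inside a mesenchymal wall, so the explants hold both tissues and their vessels, nerves and macrophages.

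The probes that carry the results are shown by sequence, since the 4 probes of Trp63 gave different ratios and each reads another stretch of the gene. For probe 1 all 60 bases are given, with a run of 6 CAG triplets in capitals. For the others the first 30 bases are given in lower case. Coordinates are those of the files, on mm9, and each probe is written as the files give it, 5′ to 3′. Probe 1 of Trp63 (NM_001127261) lies at chr16:25871159-25871218, probe 2 (NM_011641) at chr16:25892012-25892071, probe 3 (cDNA clone AK138305) at chr16:25821344-25821403 and probe 4 (cDNA clone AK048623) at chr16:25867718-25867777, all on the plus strand. Probe 3 thus lies farthest toward the 5′ side and probe 2 farthest toward the 3′ side. Probes 1 and 2 of Ehf (NM_007914) lie at chr2:103106827-103106886 and chr2:103114043-103114102 on the minus strand. The probe of Pparg (NM_011146) lies at chr6:115440213-115440272 on the plus strand and that of Grhl3 (NM_001013756) at chr4:135097991-135098050 on the minus strand. No exon annotation of that build was used here.
Trp63 probe 1: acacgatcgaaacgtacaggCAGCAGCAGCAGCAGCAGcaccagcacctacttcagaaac
Trp63 probe 2: caaaaggtactttcttatagacatgatact
Trp63 probe 3: acttaccatgtgtcctggctatagcttttc
Trp63 probe 4: cagtcccatataccatgcacttaactcttt
Ehf probe 1: ggattctgatcaatgaagaaccggacgtaa
Ehf probe 2: gacagtaagactttctgccgggctcagatc
Pparg: gcaggaaagtcccacccgctgacaacgtgt
Grhl3: ggaacaaatacccttgccacctactgttgt

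As a check of the treatment, the WNT feedback genes Axin2, Sp5 and Lef1 rose by 2.15, 2.80 and 1.07 on the log2 scale, and all 9 genes of the WNT feedback list rose. All 12 general epithelial markers and all 12 ureteric mesenchyme markers were well above background in at least 1 condition on both arrays. So were 73.1% of all biological probes, so this cannot tell tissues apart. The ratios of the arrays correlated with r = 0.80 across the probes tested, which are not independent replicates. The arrays shared 1 slide and 1 scan. Since each dye orientation was used once, dye and replicate cannot be told apart in the differences between the arrays.

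Of the 10 genes, Pparg, Ehf and Ovol1 fell with BIO at every probe, Trp63 fell at 3 of its 4 probes, and Grhl3 rose. In probes, 1 of 15 rose and 7 fell at a limma adjusted p below 0.05, against 8.95% of all probes that rose, 14.3% that fell and 23.2% that did either. The other 7 probes, those of Grhl1, Grhl2, Gata3, Klf5 and Elf3 and the brightest probe of Trp63, did not pass the test. The median log2 ratio of the 15 probes was -0.27 (-0.40 in replicate 1 and -0.29 in replicate 2), beside -0.01 for all probes tested. Probes of 1 gene are not independent. With each gene at its brightest probe, 1 of 10 rose and 3 fell, beside 9.13% and 14.8% of all genes tested. The median was then -0.08. The sign was the same on both arrays for 11 of the 15 probes. For its other arrays the study called genes without a test, by a rule on intensity and fold change. Applied here, it asks for at least 2-fold in the same direction and a brighter channel of at least 100 on both arrays, on the processed signal (the scanner software's background-subtracted and dye-normalized intensity). By this rule Grhl3 was higher, and Pparg, Ehf at both probes and Trp63 at probe 2 were lower. That is 1 probe higher and 4 lower, beside 0.695% and 1.38% of all probes with a ratio.

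**Figure D1:**
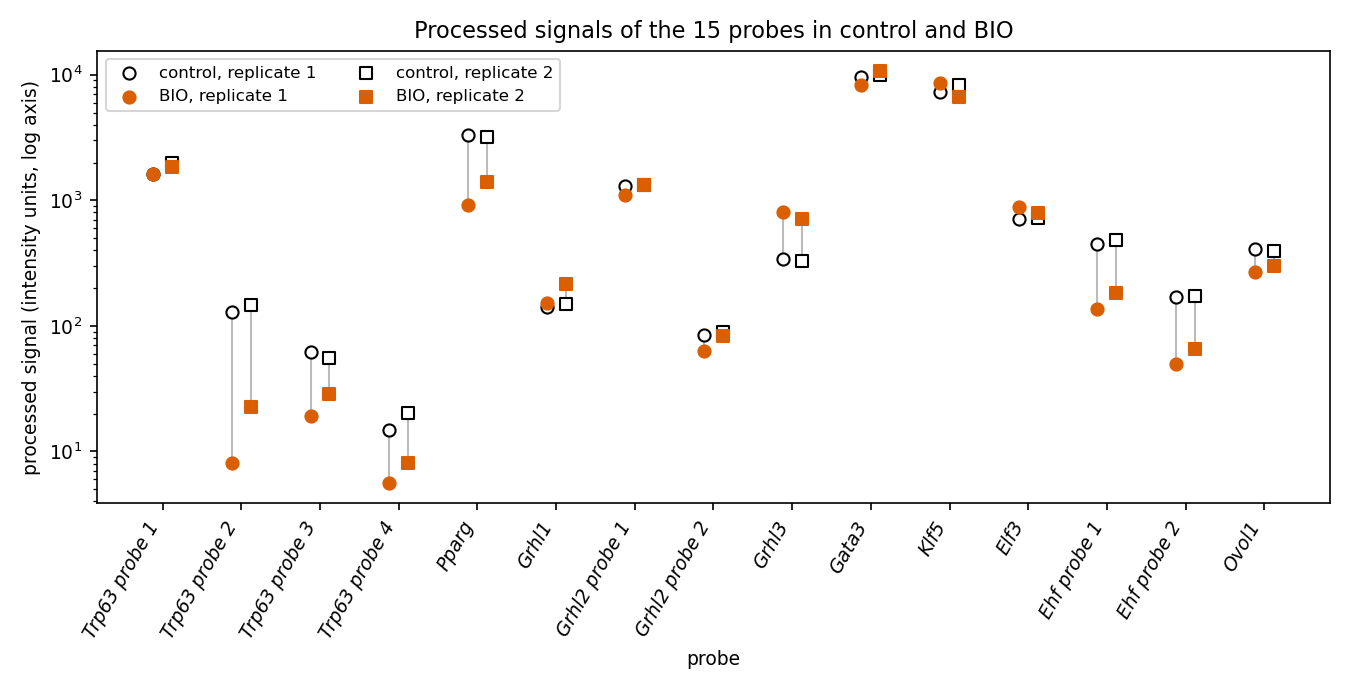
Processed signals of the 15 probes (vertical axis, intensity units, log scale), with open symbols for control and filled symbols for BIO, circles for replicate 1 and squares for replicate 2, and a line joining the channels of 1 array. The BIO symbols lie below both control symbols for Pparg, Ehf, Ovol1 and probes 2 to 4 of Trp63, and above them for Grhl3. They also lie below for probe 2 of Grhl2 and above for Grhl1 and Elf3, which were not called. The share of all probes without overlap is not given here. Levels of different probes cannot be compared.

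Trp63 encodes p63, the p53 family factor of basal cells in stratified epithelia. At probe 1 its processed signal was 1612 in control and 1634 in BIO in replicate 1, and in replicate 2 it was 1966 and 1855. The BIO values lay within the range of the control values. The log2 ratio was 0.05 and -0.15 (mean -0.05 ± 0.11 SE, 95% interval -0.31 to 0.21, limma adjusted p = 0.799). At probe 2 the processed signal was 130 in control and 8.14 in BIO in replicate 1, and 147 and 22.7 in replicate 2. Both BIO values lay far below both control values, and the BIO channel was well above background in replicate 2 but not in replicate 1. This probe fell, with log2 ratios of -2.18 and -1.78 (mean -1.98 ± 0.13, limma adjusted p = 6.66e-05). The size depends on how dim signals are treated, since the offset added in background correction pulls low ratios toward 0, and with processed signals the mean was -3.40.

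Probe 3 of Trp63 had a processed signal of 61.7 in control and 19.0 in BIO in replicate 1, and of 56.0 and 28.7 in replicate 2. The groups did not overlap, and the probe fell with log2 ratios of -0.98 and -0.60 (mean -0.79 ± 0.13, limma adjusted p = 0.00336, and -1.38 with processed signals). Probe 4 had a processed signal of 14.7 in control and 5.62 in BIO in replicate 1, and of 20.3 and 8.12 in replicate 2. BIO was not well above background on either array. The measurement therefore gives a bound from the means, at least 1.22-fold lower in BIO, without an error term. Its log2 ratios were -0.40 and -0.42 (mean -0.41 ± 0.11, limma adjusted p = 0.0288), and the call was lost with median centering in place of loess (-0.32, adjusted p = 0.435). Over both groups, the processed signals of the 3 fallen probes lay between 5.62 and 147.

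Whether the probes of Trp63 moved unequally was tested on the within-array differences of their log2 ratios, in a limma fit over all 7250 pairs of a gene's further probes with its brightest one. Probe 2 lay below probe 1, with differences of -2.23 and -1.62 (mean -1.93 ± 0.16, limma adjusted p = 6.06e-05). In replicate 1 the BIO channel of probe 2 was not well above background, so that the first of these values and the mean depend on how dim signals are treated, and the second rests on signals above background in both channels. Probe 3 lay below probe 1 by -1.03 and -0.44 (mean -0.74 ± 0.16, limma adjusted p = 0.0251). For probe 4 no difference is given, since its ratio is a bound. Of all pairs, 4.11% were called. With processed signals neither difference passed, although they were larger in size (-3.33, adjusted p = 0.168, and -1.31, adjusted p = 0.222). Probe 3 also lost the call with median centering (-0.70, adjusted p = 0.192).

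The accession lists that the files give for the probes of Trp63 did not overlap with that of probe 1. They hold at most 4 entries per probe, so a transcript that is not listed may still be read. Probe 2 listed 4 RefSeq transcripts and probe 1 listed 3, whereas probes 3 and 4 listed cDNA clones. The CAG run of probe 1 occurred in 3 of the 39429 biological probes. Probe 1 is 1 of these 3, and their log2 ratios lay between -0.16 and 0.01.

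**Figure D2:**
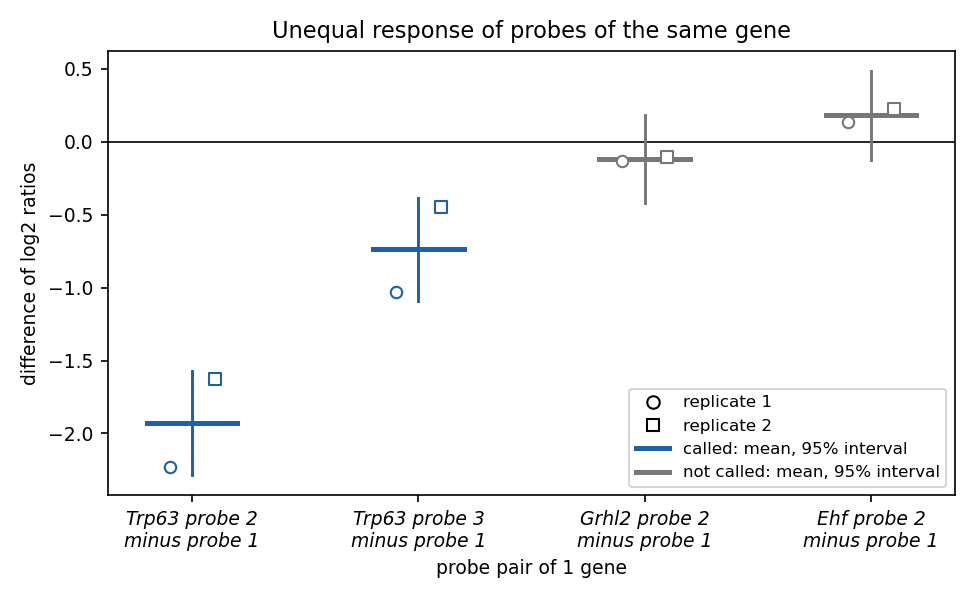
Difference of the log2 ratios of 2 probes of the same gene on each array (circles, replicate 1, and squares, replicate 2), with the mean and its 95% interval from limma, in blue where the pair was called. Probes 2 and 3 of Trp63 have means of -1.93 and -0.74, with probe 2 not well above background in BIO in replicate 1, whereas the pairs of Ehf and Grhl2 have intervals that include 0.

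Pparg encodes a nuclear receptor of lipid metabolism and urothelial differentiation. Its processed signal was 3330 in control and 918 in BIO in replicate 1, and 3209 and 1406 in replicate 2. Both BIO values were well under both control values, by 3.63-fold and 2.28-fold after centering, and the log2 ratios of -1.84 and -1.23 passed the test (mean -1.54, limma adjusted p = 0.000333). The arrays differed in the size of the fall by 0.61 on the log2 scale, the largest such difference among the 15 probes, whose median was 0.307 beside 0.162 for all probes tested. Among the members, Pparg therefore had the widest error, with a 95% interval of the mean from -1.88 to -1.19 (SE 0.15).

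Ehf, an ETS factor restricted to epithelia, fell at both probes. Probe 1 had a processed signal of 450 in control and 136 in BIO in replicate 1, and of 485 and 182 in replicate 2. Its log2 ratios were -1.59 and -1.37 (mean -1.48 ± 0.11, limma adjusted p = 0.000132). At probe 2 the signals were 168 and 49.6 in replicate 1 and 174 and 65.8 in replicate 2, with log2 ratios of -1.45 and -1.14 (mean -1.29 ± 0.12, limma adjusted p = 0.000266). BIO and control did not overlap at either probe. The probes differed by 0.18 ± 0.14, which did not pass the test (95% interval -0.12 to 0.49, limma adjusted p = 0.740).

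Elf3, the other epithelial ETS factor of the group, had a processed signal of 707 in control and 880 in BIO in replicate 1, and of 727 and 795 in replicate 2. Both BIO values exceeded both control values. The log2 ratios of 0.25 and 0.08 (mean 0.16 ± 0.11, 95% interval -0.09 to 0.42) did not pass the test (limma adjusted p = 0.339).

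Ovol1 encodes a zinc finger repressor of epithelial cells. Its processed signal was 407 in control and 267 in BIO in replicate 1, against 396 and 302 in replicate 2. The groups did not overlap. Its log2 ratios were -0.65 and -0.44, the mean of -0.54 ± 0.11 passed the test (limma adjusted p = 0.0113), and it did not reach 2-fold on either array.

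Grhl3, the grainyhead-like factor needed for superficial cells of the bladder, was the member that rose. Its processed signal was 343 in control and 802 in BIO in replicate 1, against 329 and 714 in replicate 2. Both BIO values were above both control values by more than 2-fold. The log2 ratios of 1.08 and 1.02 were close to each other (mean 1.05 ± 0.11, 95% interval 0.80 to 1.30, limma adjusted p = 0.000394), and the difference between the arrays was 0.06.

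Grhl1 and Grhl2, which bind the same DNA motif as Grhl3 and control junction genes of epithelia, did not pass the test. Grhl1 had 141 in control and 152 in BIO in replicate 1 and 150 and 215 in replicate 2 as processed signals, so that both BIO values exceeded both control values, with log2 ratios of -0.01 and 0.40 (mean 0.20 ± 0.13, 95% interval -0.10 to 0.49, limma adjusted p = 0.322). Probe 1 of Grhl2 had 1310 and 1106 in replicate 1 and 1328 and 1336 in replicate 2, and its groups overlapped (mean log2 ratio -0.16 ± 0.12, limma adjusted p = 0.4005). Probe 2 of Grhl2 had 84.7 and 62.96 in replicate 1 and 89.2 and 82.3 in replicate 2, and both BIO values lay below both control values (mean log2 ratio -0.27 ± 0.12, 95% interval -0.55 to 0.00, limma adjusted p = 0.145). The probes of Grhl2 differed by -0.12 ± 0.14 (limma adjusted p = 0.926).

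Gata3 and Klf5 gave bright signals that moved in opposite directions on the arrays. Gata3, a zinc finger factor of the nephric duct and its derivatives, had a processed signal of 9629 in control and 8329 in BIO in replicate 1, and of 9959 and 10645 in replicate 2. The BIO values lay on either side of the control values, with log2 ratios of -0.28 and 0.08 (mean -0.10 ± 0.13, 95% interval -0.39 to 0.19, limma adjusted p = 0.622). Klf5, a Krüppel-like factor of proliferating and differentiating epithelia, had 7350 and 8632 in replicate 1 and 8209 and 6588 in replicate 2. Here too the BIO values enclosed the control values, with log2 ratios of 0.18 and -0.29 (mean -0.06 ± 0.13, 95% interval -0.37 to 0.25, limma adjusted p = 0.813). The data do not exclude a change of Gata3 or Klf5 within these intervals.

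**Figure D3:**
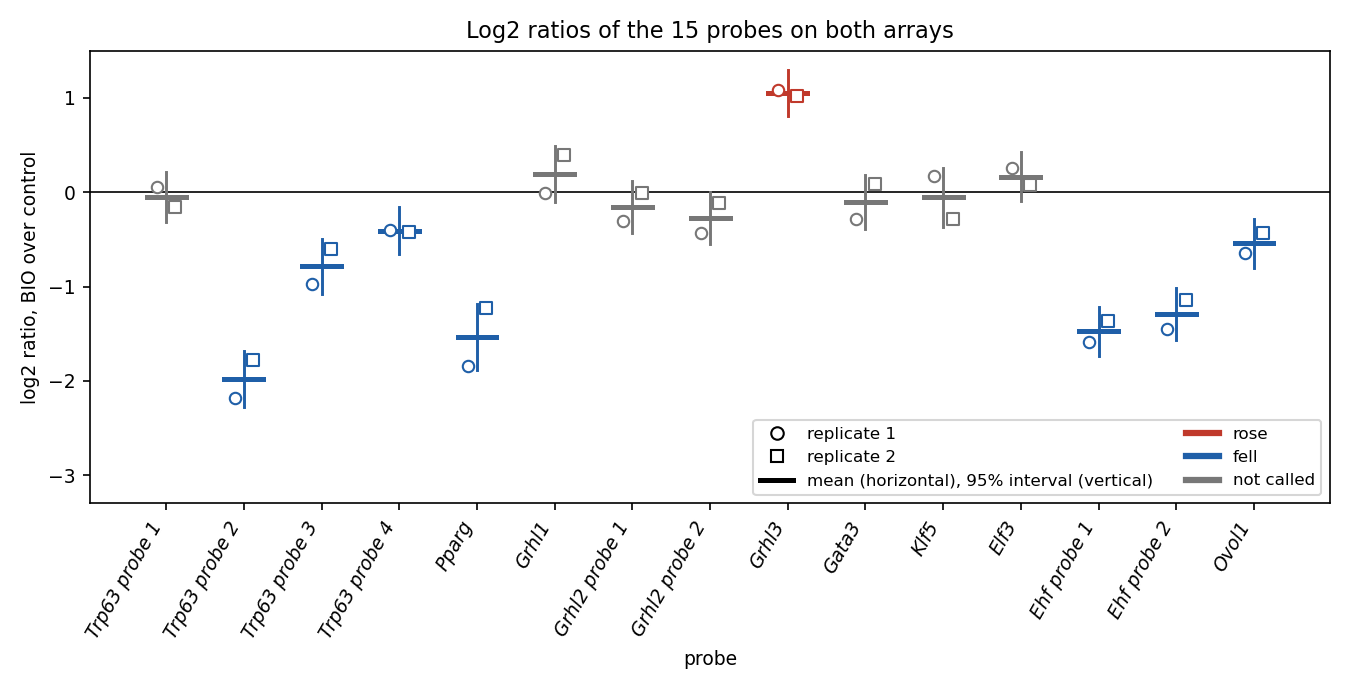
Log2 ratio of BIO over control for the 15 probes (circles, replicate 1, and squares, replicate 2), with the mean as a horizontal bar and its 95% interval from limma as a vertical line. Colors give the call, with 1 probe risen, 7 fallen and 7 not called. In replicate 1 the fallen probes lie lower than in replicate 2, except probe 4 of Trp63, which was not well above background in BIO and gives only a bound.

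Close relatives of the members were set beside them, each gene at its brightest probe. At that probe 1 of the 10 members rose and 3 fell, against 9.13% and 14.8% of all 21574 genes tested, and their median log2 ratio was -0.08 (-0.15 in replicate 1), beside -0.01 for all genes. Of 35 relatives, 34 were tested, 1 rose and 12 fell, with a median log2 ratio of -0.21. Among the p53, PPAR and CP2 relatives 1 of 7 fell, namely Tfcp2l1, a CP2 factor of kidney and duct epithelia, with a log2 ratio of -1.55 (6856 to 2303 and 7687 to 2774 in processed signal). The other p53 and PPAR genes, Trp53, Trp73, Ppara and Ppard, were not called.

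Among the GATA relatives 2 of 5 fell, Gata2 with a log2 ratio of -0.69 and Gata6 with -0.39. With median centering 0 of them fell, and with processed signals or with dim probes kept 1 fell. The KLF family had 7 of 16 relatives fallen, with a median log2 ratio of -0.27. The KLF count was 5 with median centering and 6 with processed signals. Klf2, best known as a factor of the endothelium, had the lowest ratio at -2.63 (1569 to 211 and 1913 to 339 in processed signal), followed by Klf7 at -0.80. Of the ELF, SPDEF and OVOL relatives 6 of 7 were tested. Elf5, an ETS factor of glandular epithelia, fell with log2 ratios of -1.51 and -0.72 (mean -1.12 ± 0.18), the broadly expressed Elf1 fell with a mean of -0.59, and Spdef rose with a mean of 0.37. Spdef was not called with median centering or without the filter on dim probes.

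**Figure D4:**
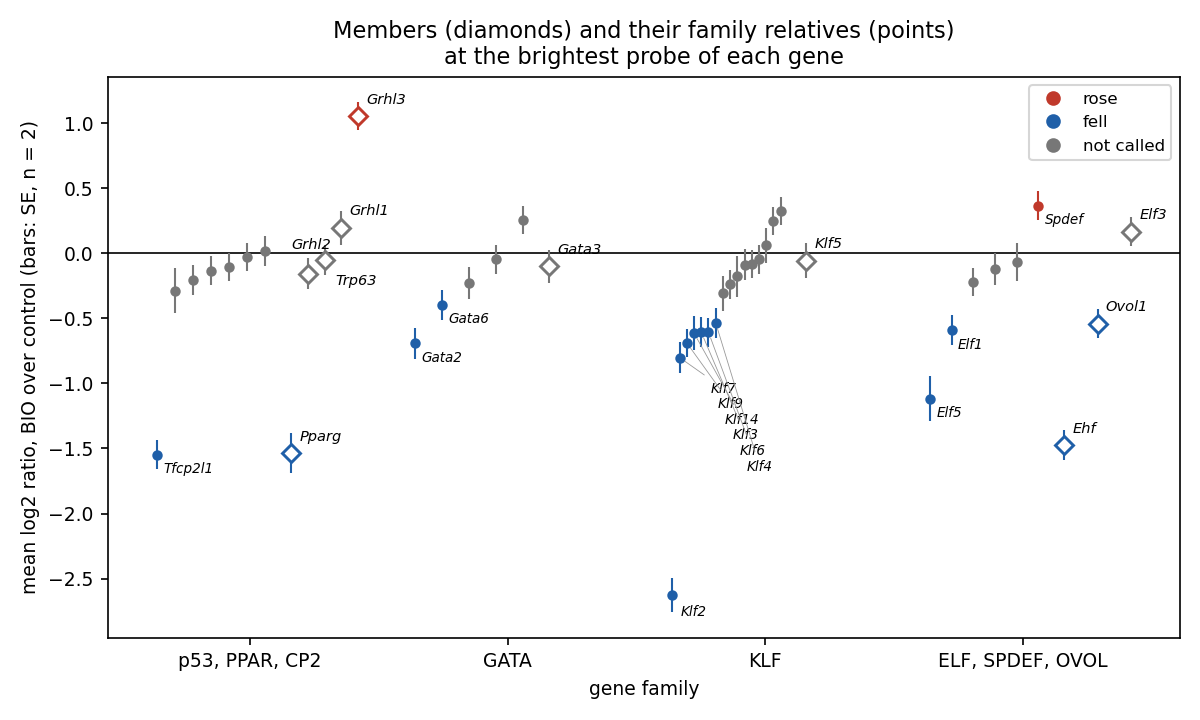
Mean log2 ratio of BIO over control with its SE (n = 2) for the members (diamonds) and for the relatives of their families (points), each gene at its brightest probe, colored by call. Among the relatives Klf2 is lowest at -2.63 and Spdef is the gene that rose, and among the members Pparg and Ehf are lowest and Grhl3 is highest.

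Other TFs of stratified epithelia were mixed. Of 9 genes 8 were tested, 2 rose and 1 fell. Their median lay at 0.35 on the log2 scale in replicate 1 but at -0.02 in replicate 2, so it had no settled direction. Tfap2c, an AP-2 factor of skin and placenta, rose with 1.23 and 1.20 (mean 1.21 ± 0.11). Its processed signal was dim (28.1 to 105 and 27.4 to 101), so the size depends on how dim signals are treated. Msx2, a homeobox gene, rose with 0.90 and 0.78 (mean 0.84 ± 0.11). Hopx fell with a mean of -0.62, and the paper placed its expression in the mesenchyme of control ureters at a later stage.

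The partners and targets of the members were described in the same way. Of 10 partners and cofactors of PPARG 2 fell, namely the coactivators Ppargc1a with a mean log2 ratio of -0.81 and Ppargc1b with -0.38. The count was 1 with processed signals, with median centering or without the filter on dim probes. The RXR genes, which encode the dimer partners of PPARG, were not called. Their means were -0.26 for Rxra, -0.33 for Rxrb and -0.02 for Rxrg. Of 13 PPARG targets 9 were tested, 1 rose and 6 fell, with a median log2 ratio of -0.62 (-0.37 in replicate 2, and -0.25 without the filter, which adds 4 dim genes). Fabp4, a fatty acid carrier, fell with log2 ratios of -4.30 and -4.07 (3255 to 143 and 3707 to 208 in processed signal). Lpl, which encodes lipoprotein lipase, fell with a mean of -1.58, and Gpd1, a glycerol phosphate dehydrogenase, rose with 0.40.

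Of 12 p63 targets 11 were tested, 1 rose and 4 fell, with a median log2 ratio of -0.14 (-0.21 in replicate 2). Fras1, a basement membrane protein, fell with a mean of -1.27 and the Notch ligand Jag2 with -1.07, and the cytolinker gene Dst rose with 0.46. Of 11 GRHL targets 10 were tested, 1 rose and 1 fell, with a median of 0.02 on the log2 scale in replicate 1 but -0.28 in replicate 2. Cdh1, which encodes E-cadherin, fell with log2 ratios of -0.95 and -1.14 (mean -1.04 ± 0.11), and Arhgef19, a guanine nucleotide exchange factor, rose with 0.37. Gpd1, Dst and Arhgef19 were not called with processed signals or with median centering.

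Of 8 products of urothelial differentiation 4 fell, with a median log2 ratio of -0.51 (-0.90 with processed signals). Upk3a, a uroplakin, fell with log2 ratios of -2.13 and -1.82 (241 to 38.8 and 175 to 28.7 in processed signal). Upk1b was not well above background in BIO on either array and was at least 2.85-fold lower, with a mean log2 ratio of -1.58. The basal keratin gene Krt5 had a processed signal of 20.8 and 25.7 in control and of 23.3 and 31.6 in BIO and was not called.

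The cell types of the explants also moved. In RNA of whole explants, fewer cells of a type and less RNA per cell cannot be told apart. Of 12 general epithelial markers 5 fell, with a median log2 ratio of -0.25 and a summed processed signal of 94079 and 95969 in control against 58133 and 65259 in BIO. The median was -0.13 in replicate 1 and -0.40 in replicate 2, and most of the sum came from the keratins Krt8 (28018 to 13851 in replicate 1) and Krt18 (28778 to 13999). The markers that fell were Cdh1 and the keratins, with Krt7 at -1.74 and Krt19 at -1.24. The other 7 markers were not called, with log2 ratios between -0.27 and 0.02. The highest was that of Epcam, named here after its value was seen. All 8 endothelial markers fell, with a median of -2.07 and a summed signal of 28597 and 34430 in control against 5317 and 9919 in BIO, Kdr at -2.63 and Cdh5 at -2.32 being lowest. The PPARG targets Fabp4 and Lpl and the factor Klf2 are also known from endothelial cells, and Fabp4 and Lpl from macrophages.

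Of 12 ureteric mesenchyme markers 9 fell, with a median log2 ratio of -0.59 (Pdgfrb -2.17, Twist1 -1.19) and a summed processed signal of 382777 and 415198 in control against 239272 and 261434 in BIO. With median centering the count was 3 and the median -0.32. Of 6 macrophage markers 4 fell (median -0.61, Cx3cr1 -1.75 and Ptprc -0.78), with sums of 6034 and 6759 against 4004 and 5543. Of 7 neural markers 4 fell (median -0.49, Dbh lowest at -0.84), with sums of 43023 and 49237 against 29697 and 41852. The neural count was 1 with median centering. In limma 0 genes of these 5 cell type lists rose, and 1 neural gene was higher at an unadjusted p below 0.05. No list had a defining marker below background in both groups. The part of these cell types in the ratios of the members and their targets was not tested.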

How the data were processed

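Total RNA of 2 control and 2 BIO pools was compared on 2 Agilent 2-color arrays with exchanged dyes, and the labels gave the groups. Per the labels the authors used Agilent Feature Extraction 10.7.3.1. The deposited scanner tables hold mean and background intensities without normalization, processed signal intensities that the software had background-subtracted and dye-normalized, and flags for outliers and background. The authors also deposited a table with 1 score for each probe on each array, given to 1 decimal. How it was made is not given in the sources used here. Set against the scanner values it behaved as a signed fold, positive where BIO was brighter than control, with a median of 1 for both arrays. Its exact centering is unknown, and it served as an alternative.

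Intensities were corrected with normexp (offset 50) and normalized by loess within each array in limma 3.58.1 (R 4.3.3), with weight 0 for control and outlier spots. Outliers made up 3.49% and 3.16% of the biological spots, and the kept spots of a probe (4 per array) were averaged. Probes with over a share of 0.5 of their spots well above background in 1 condition on both arrays were tested. The log2 ratios of both arrays, all turned to BIO over control, were tested two-sided against 0 (lmFit, then eBayes), and p-values were adjusted by Benjamini-Hochberg over the 28824 probes. The number of arrays limits the precision, with a median SE of 0.111. For differences between probes the adjustment ran over 7250 pairs. For the rule without a test, processed signals under 15 were set to 15 and each array was centered on its median. A bound compares the mean of the brighter group with the dimmest signals well above background and has no error term. Gene names came from the files, updated through RefSeq accessions (28328 probes) or symbols and synonyms.

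The text names all members with every probe and, of each gene list, the called genes with the largest rises and falls, up to 2 each way. Exceptions are Axin2, Sp5 and Lef1 and genes said not to be called or said to be named after their values were seen, and 1 gene that the rule would name is not reported here. The members and the lists were chosen with earlier results of these data known. No list was given a test. Alternatives were processed signals, an offset of 16, median centering, no filter on dim probes, the score, the median over spots, a trended robust prior, single arrays and other thresholds of the rule. The test was also run on simulated ratios with independent errors drawn from its own fitted prior. The simulation held no dye or array effects, so it cannot show that the calls are right.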

Additional observations from a re-analysis of the deposited data

How the results depend on the processing

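Over 7 alternatives with a test, 98 of 105 values for single probes of the members kept their direction and side of the threshold. With the deposited scores, 1 probe rose and 1 fell, and the median log2 ratio of the members' probes was -0.13. The scores are rounded and set Trp63 probe 4 to 0. Pparg (-1.54), Ehf (-1.58 and -1.57), Ovol1 (-0.48) and Trp63 probe 3 (-1.34) then kept their direction, with adjusted p between 0.101 and 0.229. With median centering, 6 probes fell. On single arrays the median was between -0.40 and -0.29. At a minimum of 3-fold, 0 members were higher by the rule and 1 was lower. Differences between probes were called for 0 pairs with processed signals and for 1 with median centering, and the difference between the probes of Ehf turned to -0.018 with processed signals. Of the relatives 0 rose with median centering or without the filter on dim probes, and of the targets 0 rose with processed signals or median centering. Fewer relatives fell than the 12 of the main analysis, with 8 under median centering, 10 with processed signals and 11 without the filter. Where an alternative changed a call, the cause was not tested. In BIO, Trp63 probe 4 was not well above background on either array and probe 2 was not in replicate 1, which limits their ratios. The test was paired by design, since each ratio sets a BIO pool against the control pool of its array. A further block therefore has no place in the fit.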
